A study of Homo sapiens with 16 samples.

Results

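The mucins MUC1, MUC2, MUC4, MUC13 and MUC20 and the trefoil factors TFF1, TFF2 and TFF3 were followed in Caco-2 cells. They were taken as every noncontrol probe whose gene name on the array was one of these 8 symbols. They are 8 of 30982 gene names on the array and gave 14 of its 41000 probes, 8 for mucins and 6 for trefoil factors, and all 14 were tested. On 11 of them the spot was well above background on all 16 arrays, as it was for 24839 of the 41000 probes.

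Mucins are large glycoproteins whose repeats carry dense chains of sugars attached through serine and threonine. MUC2 is the secreted gel-forming mucin of the intestinal goblet cell, whereas MUC1, MUC4, MUC13 and MUC20 are held in the cell membrane and form part of the glycocalyx. Trefoil factors are small secreted peptides that are stored with mucins and are known for a role in the repair of the mucosal surface.

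Caco-2 is a human colorectal adenocarcinoma line, used here undifferentiated, so the values describe 1 cell line. The cells were stimulated for 6 h in medium with low serum. MED-CTL cells received that medium alone, PT cells received a blank digest of pepsin and trypsin with no substrate, PT-G cells received gliadin digested with both enzymes, and p31-43 cells received a synthetic gliadin peptide at 150 µg/ml. The enzymes of the digests had been inactivated by heat, per the methods of the study. Each condition had 4 arrays from 4 independent experiments a few passages apart, and the same 4 MED-CTL arrays served all 3 comparisons with medium.

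The question was whether the digests or the peptide moved these genes away from their level in medium, and whether the gliadin digest differed from the blank one. The 16 arrays fell into 4 sets by the date their files carry, with 1 array of each condition per date. These sets are called A to D. Replicates 3 and 4 formed sets C and D. Set A held replicate 1 of p31-43, PT and PT-G with MED-CTL replicate 2, and set B the other way round. The median foreground intensity ranged from 153 on MED-CTL replicate 3 to 410 on PT replicate 3, and between 27660 and 33947 spots per array were well above background. PT replicate 3 and p31-43 replicate 4 lay apart from the other arrays of their dates, on a slide of their own. Of the intestinal epithelial markers, 16 of 17 probes were well above background on all 16 arrays. The counts were 4 of 8 for fibroblasts, 2 of 6 for leukocytes and 2 of 4 for endothelium, beside 24839 of 41000 over the array. Of the leukocyte markers, both PTPRC probes were above background on no array, whereas CD14 and 1 of 2 CD3E probes were on all 16. Of the endothelial ones, CDH5 and 1 of 2 VWF probes were on no array, whereas PECAM1 and the other VWF probe were on all 16. All levels below are deposited log2 intensities, and all fold changes are differences of their means.

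Of the members, MUC2 and MUC13 are shown by sequence, since they are the 2 genes for which a test was passed under some setting. The lines give the 250 bases before the annotated start of each gene, 5′ to 3′ on the gene's strand, from RefSeq on GRCh38.p14. MUC2 lies at chr11:1074624-1074873 on the plus strand and MUC13 at chr3:124934752-124935001 on the minus strand. Capitals mark a match to TGANTCA, the letters searched for an AP-1 site.
MUC2: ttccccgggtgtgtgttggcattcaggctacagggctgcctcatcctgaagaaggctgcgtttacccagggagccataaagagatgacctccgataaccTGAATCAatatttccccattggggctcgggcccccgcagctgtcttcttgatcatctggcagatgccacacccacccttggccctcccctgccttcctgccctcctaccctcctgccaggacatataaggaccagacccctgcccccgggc
MUC13: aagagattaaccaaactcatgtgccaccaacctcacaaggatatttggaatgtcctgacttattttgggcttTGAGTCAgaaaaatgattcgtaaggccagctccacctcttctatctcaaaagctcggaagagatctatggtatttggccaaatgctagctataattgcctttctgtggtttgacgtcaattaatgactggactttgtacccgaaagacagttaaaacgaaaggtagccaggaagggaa
The match began 151 bases before the start in MUC2 and 178 bases before it in MUC13, and no other motif searched overlapped it. On either strand, 6.57% of 35116 promoters of this length held TGANTCA. The TATA box, searched as TATAAA, was in neither sequence and in 10.7% of all promoters. An EGR site, searched as GCGGGGGCG, was in neither and in 4.72%. An E-box, searched as CACGTG, was in neither and in 6.34%. These matches describe letters only.

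MUC2, the gel-forming mucin, was lower in p31-43 cells by the nominal threshold on 1 probe, and not after adjustment. On probe A_23_P256784 the MED-CTL arrays read 7.72, 7.47, 7.88 and 7.49 in sets A to D, and the p31-43 arrays read 7.20, 7.29, 7.34 and 7.05. Every p31-43 array was below every MED-CTL array, and the difference was negative in all 4 sets, from −0.54 to −0.18. The mean was 7.22 ± 0.13 (SD, n = 4) against 7.64 ± 0.20 (SD, n = 4), a log2 fold change of −0.42 (SE 0.12, 95% interval −0.67 to −0.16) or a 0.748-fold level. The nominal p in limma was 0.00346, under the study's threshold of 0.01, and the adjusted p over all probes was 1.00. In RNA from whole cultures, fewer cells with a transcript and less of it per cell cannot be told apart. The PT arrays read 7.46, 7.47, 7.18 and 7.70 and the PT-G arrays 7.39, 7.63, 7.50 and 7.35. Both groups overlapped MED-CTL, with log2 fold changes of −0.19 for PT (95% interval −0.44 to 0.070) and −0.17 for PT-G (−0.43 to 0.085).

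The call on MUC2 rested on single arrays in part. Without MED-CTL replicate 3 the log2 fold change was −0.34 with a nominal p of 0.0139 in limma. Without p31-43 replicate 4 it was −0.36 with a nominal p of 0.0137, and without MED-CTL replicate 2 it was −0.39 with 0.0110.

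The other MUC2 probes did not pass the test. Probe A_24_P341761 read 8.29, 7.93 and 8.25 on the MED-CTL arrays of sets A to C and 7.72, 7.90 and 7.67 on the p31-43 arrays. The set D spot of both conditions carried an outlier mark and was left out, so each mean is over 3 arrays. The 2 groups did not overlap, but the values of set B lay 0.027 apart, and the log2 fold change was −0.39 (SE 0.45, 95% interval −1.38 to 0.59, a nominal p of 0.403 in limma). The marked spots had a median foreground of 1768 in MED-CTL and 1026 in p31-43, and an unmarked PT spot of set C read 1904.5. The other 13 arrays lay between 181 and 405 on this linear scale. The PT arrays therefore read 7.80, 8.03, 10.10 and 8.70, and the PT-G arrays 8.23, 7.95, 7.98 and 8.62. PT differed from MED-CTL by 0.50 (SE 0.42), and by 0.022 without PT replicate 3. The sign for PT and PT-G turned with the marked spots kept, at −0.15 and −0.61. The third probe, A_24_P84657, was well above background on no array, and lay between 5.79 and 6.03.

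In the comparison of p31-43 with MED-CTL, 1 of 14 member probes thus had a nominal p under 0.01, against 0.403% of the 40982 probes tested. No member had an adjusted p under 0.05, and no probe on the array did (0%), while 1 member, the same probe, had an unadjusted p under 0.05, against 2.15% of all probes. Groups that did not overlap were seen for 2 members, MUC2 A_23_P256784 and A_24_P341761, against 1.37% of all probes. On A_24_P341761 only 3 arrays per group were compared. Fewer arrays separate more readily by chance, so that share is not a like background for it. The third MUC2 probe, A_24_P84657, overlapped.

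**Figure D1:**
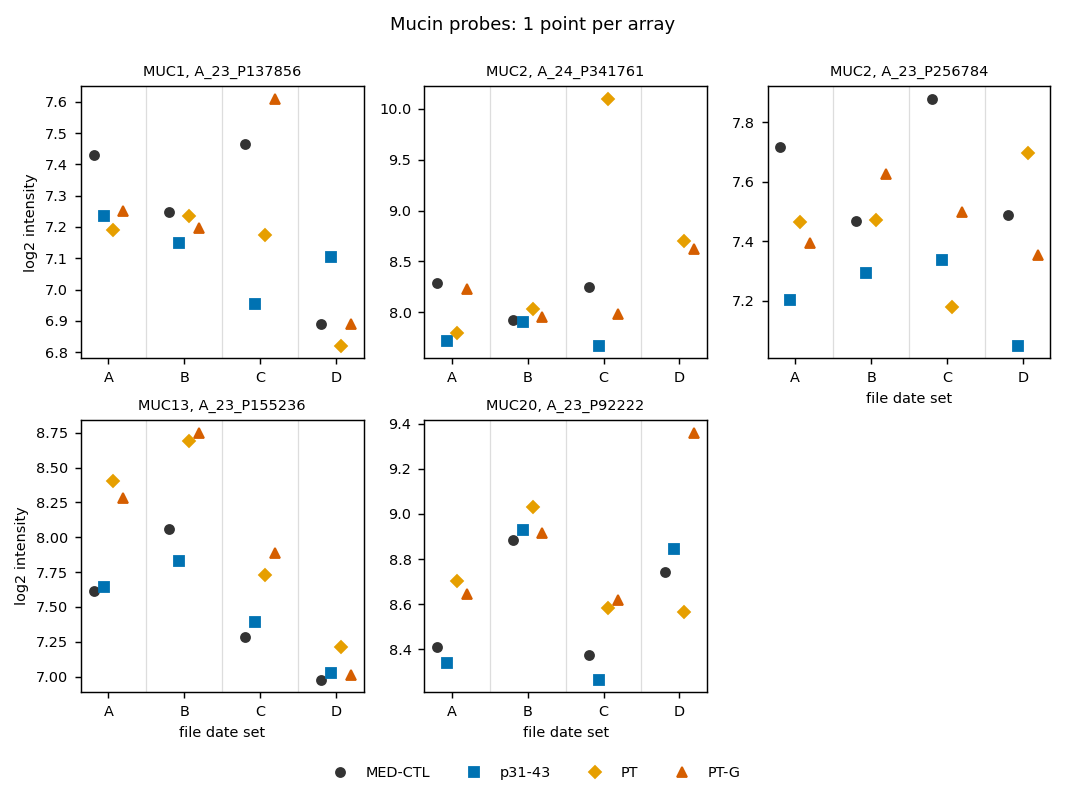
Log2 intensity (vertical axes) of the 5 mucin probes well above background on all arrays, by file date set (horizontal axes) with 1 point per array and a symbol per condition. For MUC2 A_23_P256784 the 4 p31-43 squares lie between 7.05 and 7.34, below the MED-CTL circles, and for MUC13 the PT and PT-G symbols lie above the MED-CTL circle of their set.

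MUC13, a membrane mucin of the intestinal surface, was higher with both digests than with medium on every file date, but its level also moved with the date. Probe A_23_P155236 read 7.62, 8.06, 7.29 and 6.98 on the MED-CTL arrays of sets A to D. The PT arrays read 8.41, 8.69, 7.73 and 7.22, and the PT-G arrays 8.28, 8.75, 7.89 and 7.01. The groups overlapped, and set D was the lowest of every condition. The PT and PT-G arrays of set C were also below the MED-CTL array of set B. Within sets, PT exceeded MED-CTL by 0.79, 0.63, 0.44 and 0.24, and PT-G by 0.67, 0.69, 0.60 and 0.035. The p31-43 arrays, at 7.64, 7.83, 7.39 and 7.03, lay within 0.23 of the MED-CTL array of the same set.

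Tested without the date, the log2 fold change was 0.52 for PT (SE 0.38, 95% interval −0.29 to 1.34, adjusted p = 0.788 in limma) and 0.50 for PT-G (SE 0.38, −0.32 to 1.31, adjusted p = 0.958). With the file date as a block the values were the same and the SE was 0.13. The adjusted p was then 0.0347 for PT and 0.0463 for PT-G. With that block 6.50% of all probes passed for PT and 5.73% for PT-G, so 1 of 14 member probes is close to the share of the array. With the slide as a block the adjusted p was 0.0121 and 0.0160, at log2 fold changes of 0.59 and 0.50, where 6.93% and 9.32% of all probes passed. The numbers of replicates gave a block with adjusted p of 0.100 and 0.133 and nominal p of 0.00755 for PT and 0.0101 for PT-G. A nominal p under 0.01 was reached by MUC13 alone of the members, for PT with each of the 3 blocks and for PT-G with the date and the slide. Of all probes, 10.2% reached it for PT and 9.11% for PT-G with the date, 10.6% and 12.2% with the slide, and 8.45% and 7.58% with the replicate number. The log2 fold change was −0.013 for p31-43 (95% interval −0.83 to 0.80) and −0.026 between PT-G and PT (−0.84 to 0.79), neither past the threshold. Without the date, the value for PT ranged from 0.30 without PT replicate 2 to 0.79 without PT replicate 4, and that for PT-G from 0.24 without PT-G replicate 2 to 0.82 without PT-G replicate 4. It was positive without any 1 array.

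**Figure D2:**
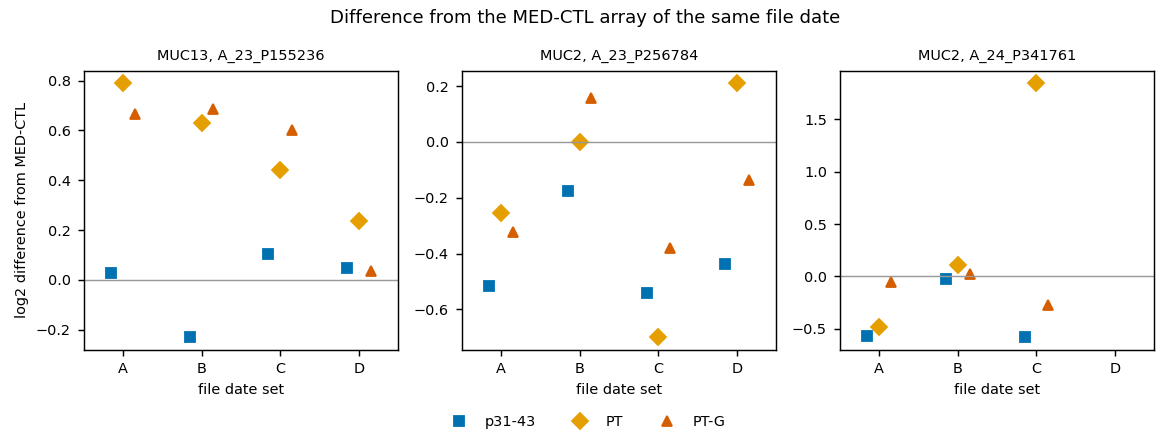
Log2 difference (vertical axes) between each stimulated array and the MED-CTL array of the same file date set (horizontal axes) for MUC13 and 2 MUC2 probes. All 8 PT and PT-G points of MUC13 lie above 0, between 0.035 and 0.79, and all 4 p31-43 points of MUC2 A_23_P256784 lie below 0. Set D has no point for MUC2 A_24_P341761 because its MED-CTL spot was marked.

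The remaining membrane mucins overlapped between conditions. MUC20 on probe A_23_P92222 had a mean of 8.60 ± 0.25 in MED-CTL, 8.59 ± 0.34 in p31-43, 8.72 ± 0.22 in PT and 8.89 ± 0.34 in PT-G (SD, n = 4 each). The PT-G array was above the MED-CTL array in all 4 sets, by 0.24, 0.035, 0.24 and 0.62, yet the log2 fold change of 0.28 (SE 0.20, 95% interval −0.14 to 0.71) missed the threshold. A pseudogene of MUC20, MUC20P1, is listed in RefSeq and could share signal with these probes, which was not tested. MUC1, an epithelial membrane mucin, had means between 7.11 and 7.26 over the 4 conditions, with log2 fold changes from −0.15 to 0.13. The second MUC20 probe, A_23_P92225, and the MUC4 probe, A_24_P208825, were not well above background on all arrays. They lay between 6.22 and 6.60 and between 5.90 and 6.37.

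The trefoil factors were strongly detected, except on TFF3 A_24_P289208, and did not pass the test in any comparison. That probe had condition means between 7.77 and 7.97, near the median of an array. TFF1, first known as an oestrogen-induced transcript of breast cancer cells and also made by the stomach, read 14.27, 14.79, 13.10 and 14.76 on the MED-CTL arrays of sets A to D on probe A_23_P68759. The PT arrays read 14.25, 15.13, 14.85 and 14.68, the PT-G arrays 14.66, 14.79, 13.44 and 14.94, and the p31-43 arrays 14.30, 14.83, 13.86 and 14.43. Set C was the lowest set in MED-CTL, PT-G and p31-43 but not in PT, where its array stood 1.75 above MED-CTL.
TFF3, the trefoil factor of the goblet cell, read 14.12, 14.95, 13.29 and 14.54 on the MED-CTL arrays on probe A_23_P393099. The PT arrays read 13.91, 15.04, 14.41 and 14.50, the PT-G arrays 14.13, 14.77, 13.34 and 14.69, and the p31-43 arrays 13.74, 15.09, 13.86 and 14.37. Set B was the highest in every condition, and the PT array of set C was again above the other 3 of its set. TFF2, known from gastric and duodenal mucus, read 9.51, 10.52, 10.04 and 10.84 on the MED-CTL arrays, and 9.98, 10.91, 10.83 and 10.76 on the PT arrays. The PT-G arrays read 10.22, 10.54, 9.85 and 11.09 and the p31-43 arrays 9.72, 10.72, 9.78 and 10.45, and all 4 groups overlapped.

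Against MED-CTL, all 6 trefoil probes had a positive log2 fold change with PT, from 0.19 to 0.50 with a median of 0.35, beside a median of −0.012 over all probes. The smallest nominal p among them was 0.170 in limma, and the 95% interval of TFF1 A_23_P68759 ran from −0.34 to 1.34. TFF1 A_24_P322771 and TFF3 A_24_P289208 were higher in 4 of 4 sets, and the other 4 probes in 2 or 3 of 4. Several of these probes report the same gene, so they are not independent. The values leaned on set C, in which MED-CTL replicate 3 had the lowest and PT replicate 3 the highest median foreground of the series. The part of this in the result was not tested. Without MED-CTL replicate 3 the log2 fold change of TFF1 A_23_P68759 was 0.12, and those of TFF3 A_23_P393099 and A_23_P257296 turned to −0.070 and −0.047. With the slide as a block, under which PT replicate 3 lay apart from the other arrays of its date, the 6 values for PT were between 0.025 and 0.27 with a median of 0.17.
With PT-G the 6 values lay between 0.011 and 0.28 (median 0.16), and with p31-43 between −0.064 and 0.13 (median 0.076), where the 2 negative values, of TFF1 A_24_P322771 and TFF2, turned to 0.078 and 0.047 with median scaling. PT-G differed from PT by −0.27 to −0.13 on the 6 probes, with 95% intervals that all held 0. With the slide as a block, both TFF1 probes and TFF3 A_23_P257296 turned to 0.0077, 0.011 and 0.058 in that comparison.

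**Figure D3:**
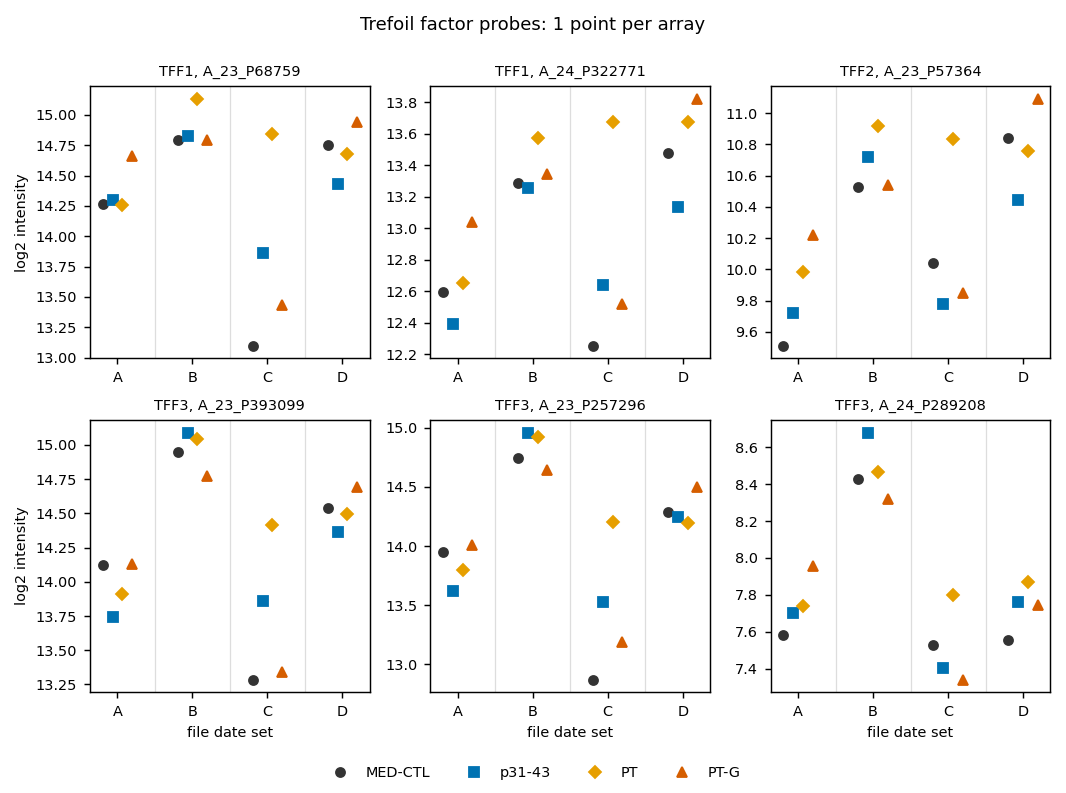
Log2 intensity (vertical axes) of the 6 trefoil factor probes by file date set (horizontal axes), 1 point per array and a symbol per condition. The sets differ more than the conditions on all 3 TFF3 probes, and on both TFF1 probes the PT array stands above the other arrays of set C.

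The trefoil factors varied together over the arrays. Between the brightest probe of each gene, Pearson's r over the 16 arrays was 0.908 for TFF1 and TFF3, 0.724 for TFF1 and TFF2, and 0.764 for TFF2 and TFF3. Spearman's rho was 0.897, 0.847 and 0.765. With 100000 permutations, the adjusted p over the 3 pairs was 3e-05, 0.00085 and 0.00085 for r, and 3e-05, 9e-05 and 0.00087 for rho. Before adjustment, the permutation p of TFF1 and TFF3 was 1e-05 for both, the smallest that the permutations can give. Arrays of a date are not independent, so these p-values are too small. After subtraction of each date's mean, r was 0.919, 0.775 and 0.661, and without the 2 arrays farthest from the median of the first gene it was 0.843, 0.868 and 0.809. In set C the PT array stood above MED-CTL by 1.75, 0.79 and 1.13 for TFF1, TFF2 and TFF3, and r without this set was not computed. Some other genes had a higher r with a trefoil factor. Of 17674 probes searched, the closest were IL6R to TFF1 (0.974), APOM to TFF2 (0.954) and HLA-DMA to TFF3 (0.969). These are the highest values of a search, so they give no background for the 3 pairs. The usual r between bright probes was not computed. In RefSeq the 3 genes are direct neighbours on chromosome 21, and MUC20 and MUC4 on chromosome 3.

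Most of the spread of these genes lay between file dates. Of the sum of squares over the 16 arrays, the date held 78.0% for TFF3 A_23_P393099, 56.7% for TFF1 A_23_P68759, 64.3% for TFF2 and 71.9% for MUC13, beside a median of 55.3% for probes well above background on all arrays. The condition held 3.29%, 11.4%, 14.0% and 21.3%, beside a median of 14.1%. MUC2 A_23_P256784 had 2.01% between dates and 50.7% between conditions.

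**Figure D4:**
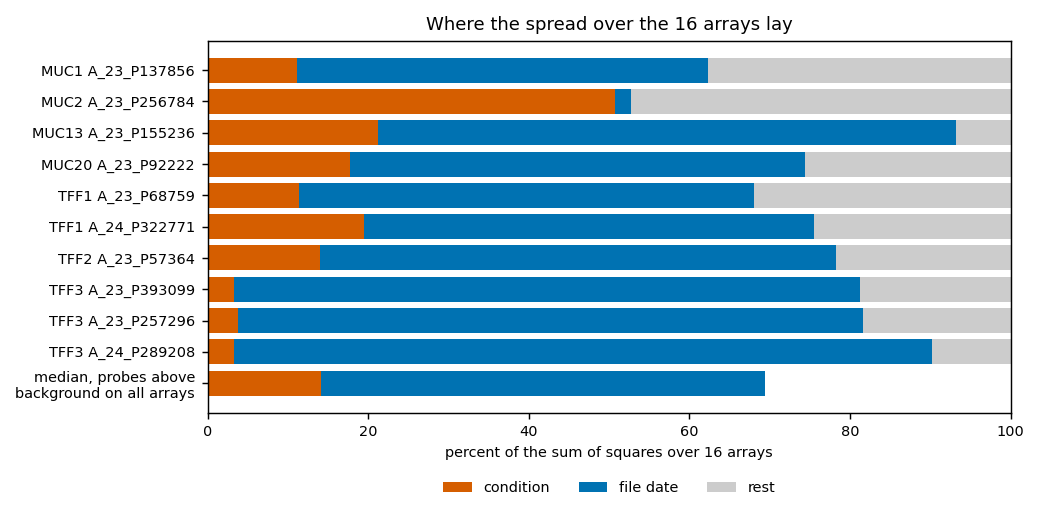
Share of the sum of squares over 16 arrays (horizontal axis, percent) held by condition, by file date and by the rest, for 10 member probes measured on all arrays. The last bar gives the medians of the first 2 shares over probes well above background. MUC2 is the member with the largest share for condition, 50.7%, and TFF3 A_24_P289208 the one with the largest for date, 86.8%.

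For PT-G against MED-CTL no member had a nominal p under 0.01 or under 0.05 in limma, where 3.43% and 7.94% of all probes did. None had an adjusted p under 0.05 (0.930% of all probes), and none had groups that did not overlap (3.86%). For PT against MED-CTL the count was 0 by each of these rules too, with 3.64%, 8.95%, 0.830% and 5.04% of all probes. Between PT-G and PT it was again 0 by each rule, with 0.0903%, 0.761%, 0% and 0.661% of all probes.

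**Figure D5:**
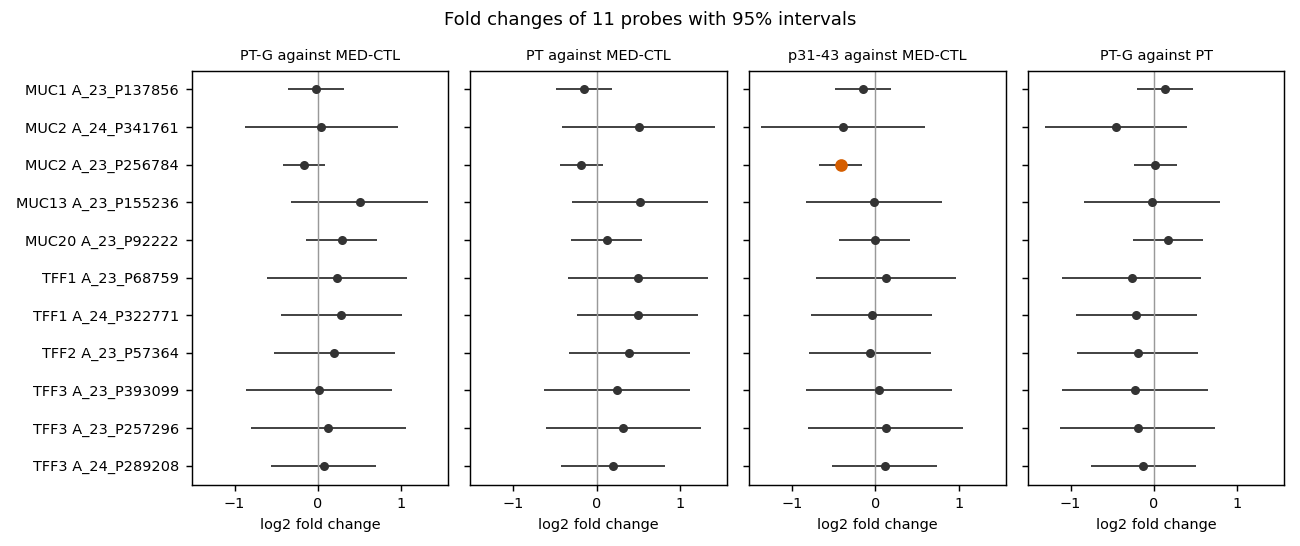
Log2 fold change (horizontal axes) of the 11 member probes well above background on all arrays, in the 4 comparisons, with 95% intervals from limma as bars. Only MUC2 A_23_P256784 for p31-43 against MED-CTL, the orange point at −0.42, has an interval that leaves out 0.

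Genes of the same pathway were taken from 3 lists. Among enzymes that build or modify the sugar chains of mucins, 38 probes of 25 genes were tested. With PT-G 1 rose and 1 fell at a nominal p under 0.01, and with PT 2 rose and 2 fell, beside 3.43% and 3.64% of all probes. With p31-43 and between PT-G and PT none passed, beside 0.403% and 0.0903% of all probes. The list's median was 0.0037 with PT-G and −0.021 with PT. GCNT3, which branches the chains, rose from 7.16 ± 0.27 to 8.05 ± 0.44 with PT-G and to 8.01 ± 0.36 with PT (SD, n = 4), log2 fold changes of 0.90 and 0.86 (SE 0.23). Its adjusted p in limma was 0.0997 and 0.121, and 0.000295 and 0.000433 with the file date as a block. CHST5, a sulfotransferase acting on N-acetylglucosamine, fell by 0.78 with PT-G and by 0.72 with PT (SE 0.15, adjusted p = 0.0282 and 0.0460 in limma) on probe A_23_P359497. Its other probes gave −0.36 and −0.028 with PT-G and −0.34 and −0.020 with PT, and did not pass without a block. With PT, FUT2, the fucosyltransferase of the secretor type, rose by 0.37 (SE 0.12, adjusted p = 0.262 in limma) on probe A_24_P942969, while its other probe gave 0.079. GCNT4, another branching enzyme, fell by 0.34 (SE 0.097, adjusted p = 0.163 in limma) and was well above background on 10 of 16 arrays.
With the file date as a block, 4 probes of this list rose and 1 fell with PT-G at an adjusted p under 0.05, and 2 rose and 2 fell with PT, beside 5.73% and 6.50% of all probes. At a nominal p under 0.01 with it, 5 rose and 7 fell with PT-G and 2 rose and 3 fell with PT. With both digests these included another CHST5 probe, A_24_P381975. The shares over all probes were 9.11% and 10.2%. The genes named for this block were picked after their values were seen. B3GNT3, which extends the chains, was higher by 0.64 with PT-G and 0.47 with PT (adjusted p = 0.00191 and 0.0104 in limma). With PT-G, ST6GALNAC1, a sialyltransferase, was higher by 0.27 (0.0350) and GALNT5, one of the enzymes that start the chains, by 0.29 (0.0463). For GCNT4 with PT the adjusted p was then 0.0175. With p31-43 and between PT-G and PT none had an adjusted p under 0.05 with the block. At a nominal p under 0.01 with it, GALNT3 A_24_P114249 and GALNT4 A_24_P942370 fell with p31-43, beside 567 of the 40982 probes tested.
Other mucins had 15 probes for 9 of 13 genes on the array, of which 4 probes were well above background on all arrays, and none passed in any comparison, nor with the file date as a block. Goblet cell products and secretory regulators had 22 probes for 17 of 19 genes, and none passed without a block. With the file date as a block, 1 rose and 1 fell with PT-G at an adjusted p under 0.05, and 2 fell with PT. Of all probes, 5.73% and 6.50% passed by that rule. KLF4, a transcription factor of goblet cell differentiation, was 1.00 higher on the log2 scale with PT-G (adjusted p = 0.326 without the block and 0.00452 with it, limma). CDX2, a transcription factor of intestinal cells, was lower with PT-G at −0.72 (0.903 and 0.0349). The other 2 were probes of FOXA1, a forkhead factor, at −0.56 and −0.57 with PT (0.634 and 0.0157 on A_24_P347431, 0.691 and 0.0359 on A_23_P37127). By a nominal p under 0.01 with the block, 1 of 22 probes rose and 2 fell with PT-G, and 1 rose and 4 fell with PT. KLF4, CDX2 and FOXA1 A_24_P347431 passed with both PT-G and PT in limma. FOXA1 A_23_P37127 and FOXA2 A_23_P500936 passed with PT only. The share over all probes was 9.11% and 10.2%, and between PT-G and PT no probe of this list passed. These genes too are named after their values were seen.

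For members other than MUC20, the 3 genes with the most similar pattern were sought by Pearson's r over the 16 arrays among 17674 named probes well above background. For MUC13 they were IGFBP4 (r = 0.970), FHL3 (0.959) and FAM101A (0.958). For MUC2 A_23_P256784 they were C17orf72 (0.913), LPPR2 (0.881) and C1orf188 (0.879). TFF1 A_23_P68759 was closest to IL6R (0.974), HPN (0.965) and B3GAT3 (0.962). TFF2 was closest to APOM (0.954), CHRDL2 (0.951) and PH-4 (0.942), and TFF3 A_23_P393099 to HLA-DMA (0.969), SERPINF1 (0.961) and PRR6 (0.955). MUC1 was closest to EIF2B4, NEK11 and MID2 (all 0.88). These points share arrays and file dates, and after subtraction of date means r of the genes named here lay between 0.744 for MID2 and 0.960 for HPN.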

How the data were processed

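RNA from 16 Caco-2 cultures was hybridised to 1-colour Agilent arrays. The authors deposited scanner intensity on a linear scale, with marks for controls, outlier spots and spots well above background as other columns, and a table of log2 values. Those log2 values differ by at most 5e-09 from median foreground intensities normalised with the quantiles method over all 45015 spots, without background correction. The main fit used the deposited log2 values of noncontrol spots. The 1774 outlier-marked spots were left out and repeated spots averaged, and 18 of 41000 probes with fewer than 3 arrays in a group were dropped. For the other 40982, 4 condition means were fitted with limma 3.58.1 (R 4.3.3), with Benjamini-Hochberg adjustment and the methods' nominal p under 0.01, whereas the authors' probe filter was not applied. The number of arrays limits the precision. Alternatives were other normalisation and background correction, dim probes left out, marked spots kept, a block for replicate number, file date or slide, only the groups compared, and leaving out each array. The members, the lists and the motifs were chosen with earlier results of these data known. Named genes were list probes at a nominal p under 0.01, at most 5 per list and comparison, and the 3 genes most like each member, which for MUC20 are not reported here. All 14 accessions of the member probes matched RefSeq, and promoters of MUC20, TFF1, TFF2 and TFF3 were not used. Figures were drawn with matplotlib 3.10.9. Samples with the same replicate number deviated together for PT-G (correlations 0.396 to 0.858) and p31-43 (0.263 to 0.707) against MED-CTL. For PT this held for some pairs only, at 0.031, 0.312, −0.015 and 0.410 for replicates 1 to 4. For the same file date the range was 0.626 to 0.858 for PT-G, 0.536 to 0.707 for p31-43 and −0.015 to 0.619 for PT.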

Additional observations from a re-analysis of the deposited data

Results flagged for a closer look

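In 4 of 42 groups of 4 arrays, 1 array stood so far from the others that its gap filled most of the group's range, where chance gives about 1 in 20 groups. For MUC1 in PT the gap was 0.850 of the range, from the set D array at 6.82. For TFF1 A_24_P322771 in PT it was 0.898 and for TFF2 in PT 0.832, both from the set A array, at 12.66 and 9.98. For TFF3 A_24_P289208 in MED-CTL it was 0.939, from the set B array at 8.43.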

How the results depend on the processing

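The 11 probes above background on all arrays gave 44 log2 fold changes, each recomputed under 26 alternatives, of which 16 left out 1 array. Of these, 18 kept their sign throughout and 26 turned at least once, none of them past the threshold in the main analysis, with values of at most 0.50 in size. The count of member probes at a nominal p under 0.01 was 0 in the main analysis for PT-G and PT against MED-CTL, and became 1 of 14, MUC13, when the file date or the slide entered as a block, where 9.11% and 12.2% of all probes passed for PT-G and 10.2% and 10.6% for PT. The replicate block gave 1 for PT (MUC13, a nominal p of 0.00755 in limma) and 0 for PT-G, where the numbers pair the arrays, beside 8.45% and 7.58% of all probes, and changed no other call on a member. For p31-43 the count of 1 (MUC2) ranged from 0 to 1 when each array was left out, and stayed 1 under every alternative over all arrays, with adjusted p between 0.240 and 1.00. Between PT-G and PT it stayed 0 throughout. Log2 fold changes of MUC2 A_24_P341761 turned for PT-G to −0.61 with marked spots kept, −0.035 under the replicate block or the date block and −0.13 under the slide block, and for PT to −0.15 with marked spots kept and −0.21 under the slide block. Under the slide block, p31-43 gave 0.015 for MUC20 A_23_P92222 and 0.0067 for TFF1 A_24_P322771, and PT-G against PT gave 0.080 and −0.089 for MUC2 A_24_P341761 and A_23_P256784, 0.0077 and 0.011 for TFF1 A_23_P68759 and A_24_P322771, and 0.058 for TFF3 A_23_P257296. Median scaling, which moved the median of all probes to −0.109 for PT, turned p31-43 values to 0.031 for MUC20 A_23_P92222, 0.078 for TFF1 A_24_P322771 and 0.047 for TFF2. The background-subtracted signal gave 0.028 for TFF1 A_24_P322771 with p31-43 and −0.011 for MUC2 A_23_P256784 between PT-G and PT. The cause of these turns was not tested. Leaving out 1 array turned further values. For PT-G against MED-CTL these ranges were MUC1 A_23_P137856 from −0.14 to 0.095, MUC2 A_24_P341761 from −0.099 to 0.12, TFF1 A_23_P68759 from −0.15 to 0.57, TFF2 A_23_P57364 from −0.044 to 0.40, TFF3 A_23_P393099 from −0.30 to 0.31, TFF3 A_23_P257296 from −0.24 to 0.42 and TFF3 A_24_P289208 from −0.093 to 0.28. For PT against MED-CTL these ranges were TFF3 A_23_P393099 from −0.070 to 0.48 and TFF3 A_23_P257296 from −0.047 to 0.58. For p31-43 against MED-CTL these ranges were MUC13 A_23_P155236 from −0.18 to 0.18, MUC20 A_23_P92222 from −0.12 to 0.10, TFF1 A_23_P68759 from −0.25 to 0.31, TFF1 A_24_P322771 from −0.26 to 0.15, TFF2 A_23_P57364 from −0.30 to 0.14, TFF3 A_23_P393099 from −0.27 to 0.28, TFF3 A_23_P257296 from −0.24 to 0.38 and TFF3 A_24_P289208 from −0.15 to 0.33. For PT-G against PT these ranges were MUC2 A_24_P341761 from −0.75 to 0.020, MUC2 A_23_P256784 from −0.076 to 0.097, MUC13 A_23_P155236 from −0.29 to 0.30, TFF1 A_23_P68759 from −0.43 to 0.070, TFF1 A_24_P322771 from −0.46 to 0.0088, TFF3 A_23_P393099 from −0.42 to 0.066, TFF3 A_23_P257296 from −0.38 to 0.10 and TFF3 A_24_P289208 from −0.29 to 0.038. Signal over background limits MUC4, MUC2 A_24_P84657 and MUC20 A_23_P92225, for which no fold change is given.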
